A study of Homo sapiens with 6 samples.

Results

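The genes described here carried no read in either wild-type library of NCI-N87 gastric carcinoma cells and were clearly on in every library of 2 KRT17 knockout groups. Members were protein-coding genes of GENCODE release 29 outside chromosomes X and Y. They had an FPKM (fragments scaled by exon length and by library depth, the deposited unit) of exactly 0 in both wild-type libraries and of 5 or more in all 4 knockout libraries. Histone, HOX and collagen genes and a few single genes were set aside by name, 7 of which met the limits, and are not reported here. Of 18884 eligible coding genes, 29 remained: BASP1, DEPDC7, GNG11, IGFBP1, NPR1, MARCOL, GSTM1, SCARA5, ZNF331, SMIM30, EPDR1, SPART, CPLANE1, FAM20C, COX7B2, JPH2, MATK, FOXF2, FOXE1, BMERB1, DSEL, TFAP2C, UCN2, TWIST2, SH3GL2, TLX3, CHST2, C4BPA and ALKBH3. Since they were chosen by their FPKM in these knockout and wild-type libraries, their difference between knockout and wild type is a description and was not tested.

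The 6 libraries of total RNA comprised 2 labelled KRT17-KO1, 2 labelled KRT17-KO2 and 2 labelled wild type (WT), all labelled NCI-N87, a cell line of human gastric cancer known for amplification of ERBB2. The labels give no treatment. What separates KO1 from KO2, different guides or different clones, is not stated, and neither is whether the replicates were grown separately. The p-values thus reflect the variation among the 6 libraries, part or all of which may be technical. Depth recovered from the FPKM values was 17599759 to 22852340 reads per library, and 13608 to 14133 genes per library reached 1 FPKM.

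The targeted gene KRT17, which encodes an intermediate filament keratin, was at 2.35 ± 0.0823 FPKM in KO1 and 10.9 ± 0.660 in KO2, against 746 ± 10.1 in WT (SD, n = 2 each). Genes that define the NCI-N87 line and gastric epithelium were also mostly far lower in the libraries labelled knockout. ERBB2, which encodes the HER2 receptor, was at 5.82 ± 0.360 FPKM in KO1 and 5.29 ± 0.0233 in KO2, against 1387 ± 46.4 in WT. The epithelial adhesion gene EPCAM was at 2.91 ± 0.0291 FPKM in KO1 and 3.07 ± 0.382 in KO2, against 186 ± 2.29 in WT. E-cadherin, encoded by CDH1, was at 0.155 ± 0.00284 FPKM in KO1 and 0.494 ± 0.103 in KO2, against 59.6 ± 1.49 in WT. KRT19, a keratin of simple epithelia, had 10 reads over the 4 knockout libraries, against 161100 over the 2 WT libraries. Of 18 tested genes in a list of NCI-N87 and gastric epithelial identity, 17 fell in the knockout average and 1 rose, and their summed level was 380 to 457 FPKM in knockout libraries, against 5570 to 5751 in WT. An effect of the knockout and a difference in the origin of the cells cannot be told apart here, and this bears on every knockout against WT value below.

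Genes without a read are common in a cell line, because promoters of lineage-foreign genes are kept shut by DNA methylation, by Polycomb or heterochromatin, or by the lack of the factors that would drive them. Genes with CpG-rich promoters can be held off by methylation of the CpG island, while CpG-poor promoters depend more on tissue-specific factors. BASP1, ZNF331 and SCARA5 are known as genes whose promoters can become methylated in human tumours. None of these mechanisms was measured in these libraries.

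A read count of exactly 0 was frequent, and a clear level beside it in the knockouts was rare. Both WT libraries had 0 reads for 3295 eligible genes, and 2352 of these were at 0 in all 4 knockout libraries as well. Another 847 were above 0 in at least 1 knockout library but below 1 FPKM in at least 1, and 67 had a lowest knockout value of 1 to 5 FPKM. The limit of 5 FPKM fell within a continuous tail of values. Just inside it lay ALKBH3, with a lowest knockout value of 5.06 FPKM, C4BPA with 5.29 and CHST2 with 5.30. Just outside lay AIRE with 4.77, ADAMTS1 with 4.06 and MPDZ with 4.02. The limit of 0 reads in WT also had near neighbours, with 14 genes that missed it by 1 WT read and 7 by 2 reads. Among these were TIMP3, an inhibitor of matrix metalloproteinases, at 17.9 ± 0.197 FPKM in the knockout libraries (SD, n = 4) against 2 reads in WT, and N-cadherin (CDH2) at 12.2 ± 0.323 FPKM against 2 reads. In the mirror direction, 38 eligible genes were at 5 FPKM or more in both WT libraries and at 0 in all 4 knockout libraries.

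**Figure D1:**
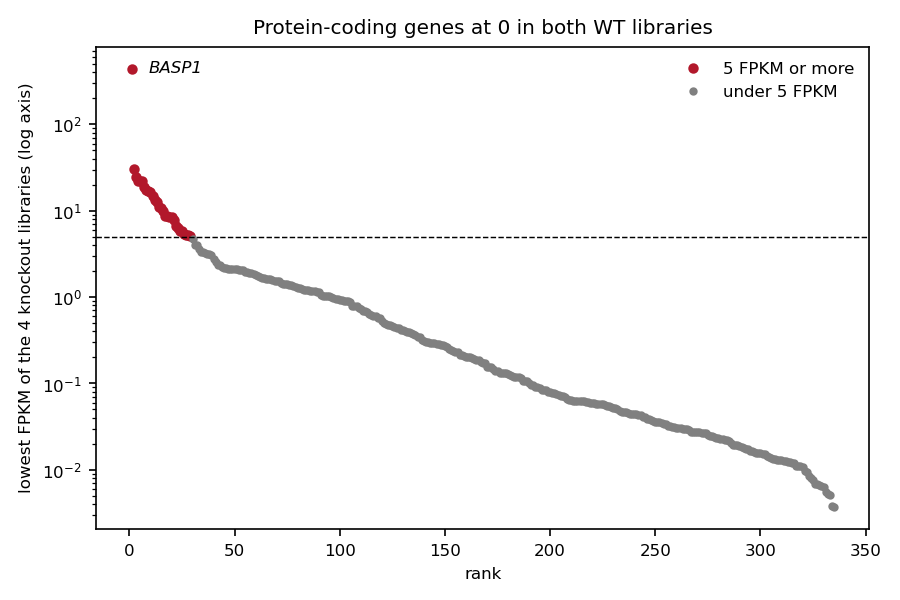
Each point is a protein-coding gene at 0 FPKM in both WT libraries and above 0 in all 4 knockout libraries, ranked by its lowest knockout FPKM (vertical log axis), with the genes left out by name not shown. Red points lie at or above the dashed line at 5 FPKM, BASP1 stands far above the rest at 439 FPKM, and the 5 FPKM line cuts a continuous slope.

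All 29 members had 0 reads in WT replicate 1 and 0 in WT replicate 2, a sum of 0 reads over the whole group of genes. Their fewest reads in any knockout library were 148, so none rested on a handful of fragments. Mean knockout levels ran from 5.77 to 465 FPKM with a median of 12.4. Only 7 members reached a mean of 20 FPKM, and the other 22 lay below it. Against a floor of 3 reads per WT library, which covers counting error only, the knockout mean was at least 63.1-fold higher for TLX3 and at least 6827-fold higher for BASP1, with a median bound of 300.1. In bulk RNA a moderate level in every cell cannot be told apart from a high level in fewer cells. The coefficient of variation over the 4 knockout libraries had a median of 10.7% across members.

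**Figure D2:**
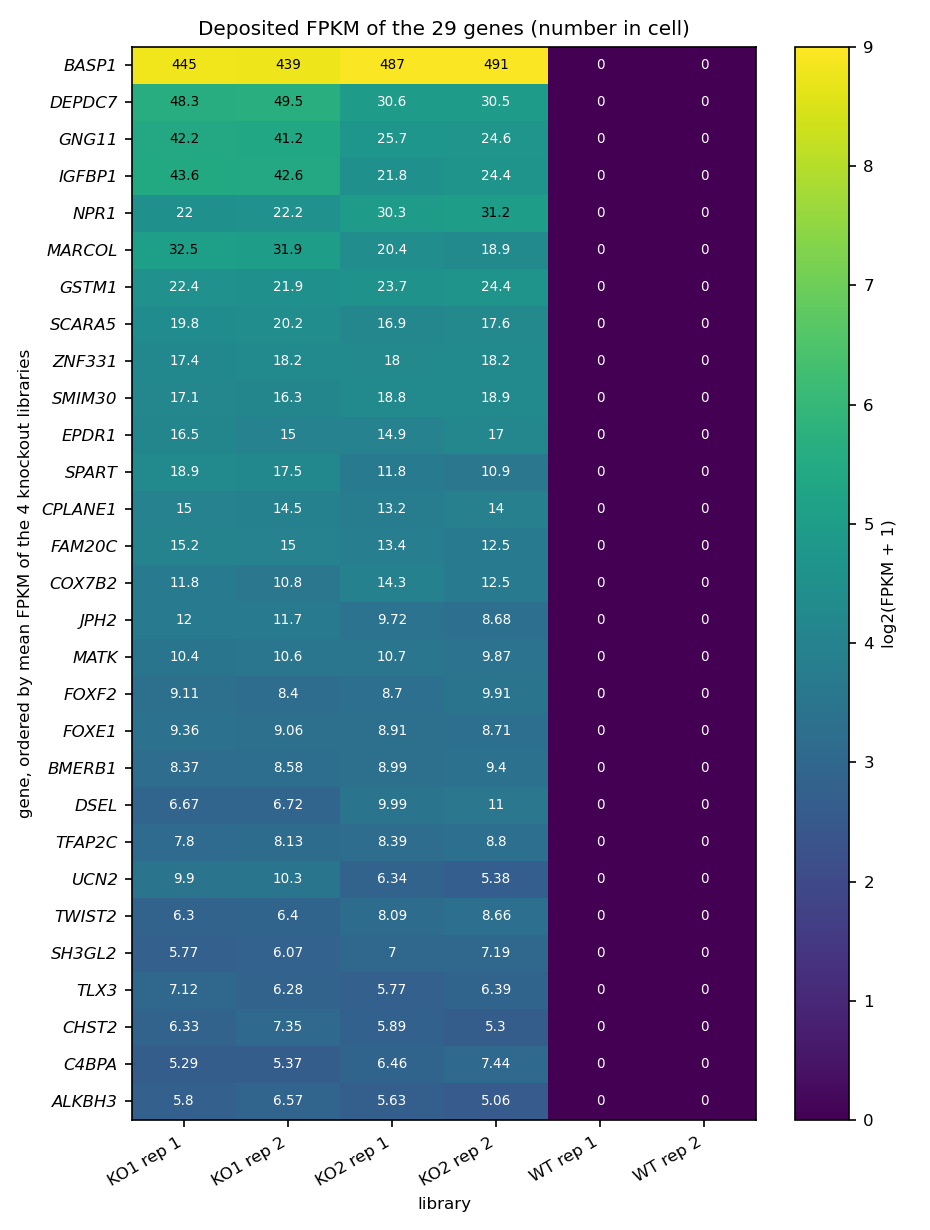
Deposited FPKM of each of the 29 genes (rows, ordered by mean knockout level) in each of the 6 libraries (columns), with colour showing log2(FPKM + 1) and the FPKM printed in the cell. Both WT columns are 0 throughout, BASP1 is the brightest row at 439 to 491 FPKM, and most rows are close to even across the 4 knockout columns.

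BASP1 (ENSG00000176788, GRCh38 chromosome 5, 17065598 to 17276843) was the most abundant member by far. It encodes a myristoylated protein of the inner face of the plasma membrane, abundant in growth cones, that also acts in the nucleus as a corepressor of WT1. Its level was 445 and 439 FPKM in KO1 and 487 and 491 in KO2, against 0 and 0 in WT. In the knockout libraries it stood at the 99.8th percentile of all coding genes outside chromosomes X and Y. The member next in level, DEPDC7, averaged 39.7 ± 10.6 FPKM against 465 ± 27.5 for BASP1 (SD, n = 4). CPLANE1 (ENSG00000197603, chromosome 5, 37106228 to 37249428), a ciliogenesis and planar polarity effector mutated in Joubert syndrome, was at 14.98 and 14.5 FPKM in KO1 and 13.2 and 14.0 in KO2, against 0 and 0 in WT. With a long transcript, that level stood for 18140 reads over the 4 knockout libraries, at least 1420-fold above the floor of the WT libraries. ZNF331 (ENSG00000130844, chromosome 19, 53519527 to 53580269), an imprinted gene for a KRAB zinc finger protein, was at 17.4 and 18.2 FPKM in KO1 and 18.05 and 18.2 in KO2, against 0 and 0 in WT. It was the steadiest of these named first, and its knockout groups overlapped.

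Promoter sequence is shown for BASP1, CPLANE1 and ZNF331, the leading members with an entry in the RefSeq promoter table, and for C4BPA as a member of low CpG content. Each line gives the 250 bases before the RefSeq start on the strand of the gene (GRCh38.p14), with CpG dinucleotides in capitals. The regions are chr5:17216573-17216822 on the plus strand for BASP1, chr5:37249377-37249626 on the minus strand for CPLANE1, chr19:53520764-53521013 on the plus strand for ZNF331 and chr1:207103983-207104232 on the plus strand for C4BPA.
BASP1: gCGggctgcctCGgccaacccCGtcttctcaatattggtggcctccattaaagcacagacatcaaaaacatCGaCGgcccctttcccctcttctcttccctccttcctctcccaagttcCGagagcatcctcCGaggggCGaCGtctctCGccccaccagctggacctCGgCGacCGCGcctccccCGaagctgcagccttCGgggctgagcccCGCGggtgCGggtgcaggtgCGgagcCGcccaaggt
CPLANE1: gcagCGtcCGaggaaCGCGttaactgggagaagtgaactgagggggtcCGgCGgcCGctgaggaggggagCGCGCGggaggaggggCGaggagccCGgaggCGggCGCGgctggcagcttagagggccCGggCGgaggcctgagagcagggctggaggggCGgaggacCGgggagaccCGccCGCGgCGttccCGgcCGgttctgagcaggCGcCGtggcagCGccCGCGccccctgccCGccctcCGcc
ZNF331: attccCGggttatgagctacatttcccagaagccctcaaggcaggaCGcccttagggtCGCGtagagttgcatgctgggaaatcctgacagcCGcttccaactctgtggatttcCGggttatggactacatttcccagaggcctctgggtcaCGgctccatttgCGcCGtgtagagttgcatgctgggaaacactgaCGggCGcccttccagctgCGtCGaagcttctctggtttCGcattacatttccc
C4BPA: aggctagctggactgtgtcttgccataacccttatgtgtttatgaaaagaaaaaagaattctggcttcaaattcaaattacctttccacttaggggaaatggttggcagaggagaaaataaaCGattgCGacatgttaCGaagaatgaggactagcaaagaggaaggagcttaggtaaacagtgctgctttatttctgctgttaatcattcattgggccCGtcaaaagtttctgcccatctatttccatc
These 250 bases held 21 CpG in BASP1, 32 in CPLANE1, 14 in ZNF331 and 4 in C4BPA. The RefSeq start used for BASP1 lies 151225 bases inside the GENCODE gene, so the window describes the RefSeq start and not the outermost annotated one. The same holds for EPDR1 (236797 bases), MARCOL (16875) and ZNF331 (1487), and 15 of the 25 members with a window had both starts within 100 bases.

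Across the 25 members with an entry (SCARA5, IGFBP1, BMERB1 and TFAP2C had none), promoter windows covered both kinds. Over the full table window of 300 bases (250 before and 50 after the start), 14 of 25 were rich in CpG by a GC content of at least 55% and an observed over expected CpG ratio of at least 0.6. That share was 56% (95% exact binomial interval 34.9% to 75.6%, counting error only). It compares with 61.2% of all 14591 protein-coding promoters, 83.1% of 4519 genes at 5 FPKM or more in all 6 libraries and 22.5% of 1580 genes at 0 in all 6. The median observed over expected ratio was 0.738 in members, against 0.772 in all promoters, 0.877 in the genes on throughout and 0.262 in the genes off throughout. Members thus lay near the average of all promoters, below the genes on throughout and above those off throughout. CHST2 had the highest ratio at 1.16 with 51 CpG in its window, while MARCOL had 1 CpG and UCN2 had 3.

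**Figure D3:**
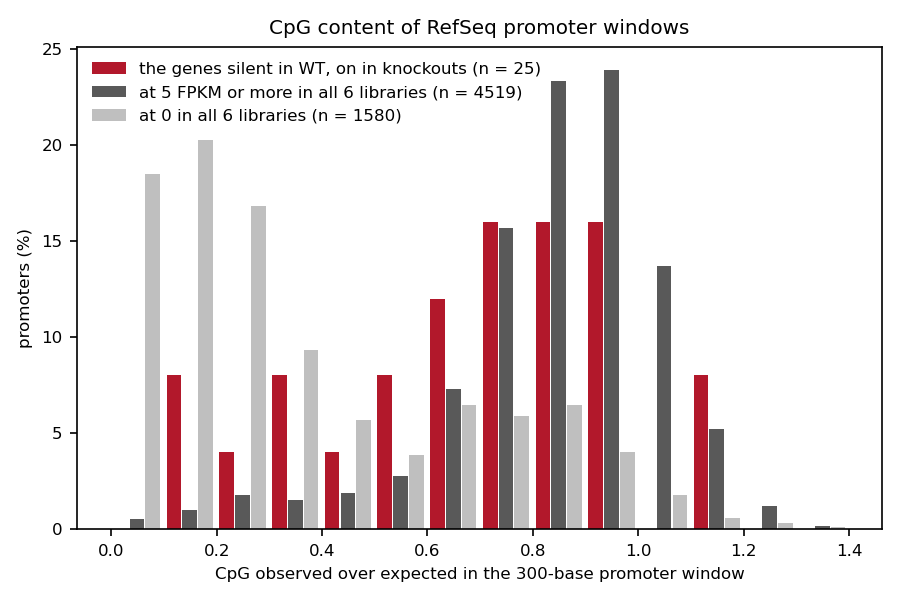
Share of RefSeq promoter windows (percent, vertical axis) by observed over expected CpG ratio in bins of 0.1 (horizontal axis), for 25 of the members (red), 4519 protein-coding genes at 5 FPKM or more in all 6 libraries (dark grey) and 1580 genes at 0 in all 6 (light grey). The members spread between 0.103 and 1.16, whereas the genes on throughout gather around their median of 0.877 and most genes off throughout lie below 0.4.

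Motifs were looked for in these windows on both strands, as letters only. GGGCGG, the GC box, was present in 15 of 25 members (60%) and in 59.6% of all promoters. CCAAT was present in 13 members (52%), against 36.3% of all promoters, and TATAAA in 1 (4%, SMIM30), against 9.69%. TGANTCA, the letters of the AP-1 site, occurred in COX7B2, SPART and UCN2, 3 of 25 (12%), against 5.67%. CACCTG, an E-box, occurred in 5 (20%), against 19.9%, GGAATG, the core letters of the TEAD site, in 2 (8%), against 11.6%, and the E-box CACGTG in 0, against 8.75%. CACCTG and CACGTG do not overlap each other in sequence. With 25 windows, 1 promoter is worth 4 percentage points.

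Secreted products formed 1 group of members. IGFBP1 (ENSG00000146678, chromosome 7, 45888357 to 45893668), a carrier that binds insulin-like growth factors and is typical of liver and decidua, was at 43.6 and 42.6 FPKM in KO1 and 21.8 and 24.4 in KO2, against 0 and 0 in WT. EPDR1, an ependymin-related lipid-binding protein, was at 16.5 and 14.96 FPKM in KO1 and 14.9 and 17.0 in KO2, against 0 and 0 in WT. The KO1 and KO2 libraries of EPDR1 overlapped, those of IGFBP1 did not. UCN2, which encodes urocortin 2, a peptide ligand of the receptor CRHR2, was at 9.90 and 10.3 FPKM in KO1 and 6.34 and 5.38 in KO2, against 0 and 0 in WT. C4BPA, the alpha chain of the complement inhibitor C4b-binding protein, was at 5.29 and 5.37 FPKM in KO1 and 6.46 and 7.44 in KO2, against 0 and 0 in WT. UCN2 was higher in both KO1 libraries and C4BPA in both KO2 libraries. Of the exon bases of UCN2, 19.5% are shared with the overlapping gene PFKFB4, and no source used here states whether reads were counted by strand, which leaves the level of UCN2 uncertain.

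Receptors and signalling proteins had higher median levels than the secreted group, at 25.9 FPKM for the 3 receptors and 21.9 for the 2 signalling proteins, against 11.9 for the 4 secreted ones (medians of mean knockout FPKM). NPR1 (ENSG00000169418, chromosome 1, 153678637 to 153693992), the guanylyl cyclase receptor of atrial natriuretic peptide, was at 22.0 and 22.2 FPKM in KO1 and 30.3 and 31.2 in KO2, against 0 and 0 in WT. MARCOL, named for its likeness to the scavenger receptor MARCO, was at 32.5 and 31.9 FPKM in KO1 and 20.4 and 18.9 in KO2, against 0 and 0 in WT. NPR1 was thus higher in KO2 and MARCOL higher in KO1. SCARA5 (ENSG00000168079, chromosome 8, 27869882 to 27992727), a class A scavenger receptor that binds ferritin, was at 19.8 and 20.2 FPKM in KO1 and 16.9 and 17.6 in KO2, against 0 and 0 in WT. SCARA5 was closer to even, with KO1 slightly above KO2. GNG11, a gamma subunit of heterotrimeric G proteins, was at 42.2 and 41.2 FPKM in KO1 and 25.7 and 24.6 in KO2, against 0 and 0 in WT. MATK, a relative of the kinase CSK that restrains SRC family kinases in blood cells, was at 10.4 and 10.6 FPKM in KO1 and 10.7 and 9.87 in KO2, against 0 and 0 in WT. MATK was even across both knockout groups, while GNG11 was higher in both KO1 libraries.

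Proteins of membranes and organelles included a micropeptide, a lipid droplet protein and muscle and synapse genes. SMIM30, a small membrane protein, was at 17.1 and 16.3 FPKM in KO1 and 18.8 and 18.9 in KO2, against 0 and 0 in WT. SPART, which encodes spartin, a protein of endosomes and lipid droplets mutated in Troyer syndrome, was at 18.9 and 17.5 FPKM in KO1 and 11.8 and 10.9 in KO2, against 0 and 0 in WT. The 2 KO1 libraries of SPART stood above both KO2 libraries. JPH2, a junctophilin that ties the sarcoplasmic reticulum to the plasma membrane in heart muscle, was at 11.96 and 11.7 FPKM in KO1 and 9.72 and 8.68 in KO2, against 0 and 0 in WT. SH3GL2, the endophilin of synaptic vesicle endocytosis, was at 5.77 and 6.07 FPKM in KO1 and 7.0 and 7.19 in KO2, against 0 and 0 in WT. JPH2 was the higher in KO1, and SH3GL2 in KO2.

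Enzymes made up 6 members. GSTM1 (chromosome 1, 109687814 to 109709039), a mu-class glutathione transferase whose gene is missing from many human genomes through a common deletion, was at 22.4 and 21.9 FPKM in KO1 and 23.7 and 24.4 in KO2, against 0 and 0 in WT. GSTM1 has close paralogs in a cluster and shares 38.3% of its exon bases with other annotated genes, GSTM2 among them, so its level is uncertain. FAM20C, the Golgi kinase of secreted proteins, was at 15.2 and 14.97 FPKM in KO1 and 13.4 and 12.5 in KO2, against 0 and 0 in WT. COX7B2, a testis-enriched paralog of a cytochrome c oxidase subunit, was at 11.8 and 10.8 FPKM in KO1 and 14.3 and 12.5 in KO2, against 0 and 0 in WT. DSEL, which is related to the epimerase of dermatan sulfate, was at 6.67 and 6.72 FPKM in KO1 and 9.99 and 11.0 in KO2, against 0 and 0 in WT. Of these, DSEL had the clearest split, with both KO2 libraries above both KO1 libraries. Its exons overlap antisense transcripts over 36.8% of their bases, and no source used here states whether reads were counted by strand, so its level is uncertain. CHST2, a sulfotransferase of N-acetylglucosamine, was at 6.33 and 7.35 FPKM in KO1 and 5.89 and 5.30 in KO2, against 0 and 0 in WT. ALKBH3, a demethylase of alkylated nucleic acids, was at 5.80 and 6.57 FPKM in KO1 and 5.63 and 5.06 in KO2, against 0 and 0 in WT.

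Transcription factors were among the lower members. Besides ZNF331 they were FOXF2, a forkhead factor of gut mesenchyme, FOXE1, the forkhead factor of the thyroid, TFAP2C, an AP-2 factor of trophoblast and mammary epithelium, TLX3, a homeobox factor of developing neurons, and TWIST2, a basic helix-loop-helix factor of mesenchyme. FOXF2 was at 9.11 and 8.40 FPKM in KO1 and 8.70 and 9.91 in KO2, against 0 and 0 in WT. FOXE1 was at 9.36 and 9.06 FPKM in KO1 and 8.91 and 8.71 in KO2, against 0 and 0 in WT. TFAP2C was at 7.80 and 8.13 FPKM in KO1 and 8.39 and 8.80 in KO2, against 0 and 0 in WT. None of these 3 was called between KO2 and KO1. TLX3 was at 7.12 and 6.28 FPKM in KO1 and 5.77 and 6.39 in KO2, against 0 and 0 in WT. TWIST2 was at 6.30 and 6.40 FPKM in KO1 and 8.09 and 8.66 in KO2, against 0 and 0 in WT. TWIST2 was the only 1 of the 6 factors called between KO2 and KO1. The last 2 members fit none of these groups. DEPDC7, which carries a DEP domain, was at 48.3 and 49.5 FPKM in KO1 and 30.6 and 30.5 in KO2, against 0 and 0 in WT. BMERB1, a protein with a bMERB domain, was at 8.37 and 8.58 FPKM in KO1 and 8.99 and 9.40 in KO2, against 0 and 0 in WT. Other annotated genes share 16.3% of the exon bases of TLX3 and 12.5% of those of BMERB1, so both levels are uncertain.

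KO2 was then set against KO1. The choice of members did not use this contrast itself, but it used the same knockout values, since the limit of 5 FPKM in every knockout library left out genes on mainly in 1 group. CBFA2T3, for example, had 3.30 and 3.84 FPKM in KO1 and 8.02 and 8.59 in KO2 and was no member, so the sizes of the differences are limited in part by the choice. In the limma test on log2(FPKM + 1) with Benjamini-Hochberg adjustment over 16046 tested genes, 7 members were higher in KO2, 9 were lower and 13 were not called. The 16 called were 55.2% of the members, against 26.2% of all tested genes. The rule also sets both WT libraries of a member at 0, which lowers the spread in its test. With the knockout libraries alone, 16 members were called (55.2%), against 27.2% of 14371 tested genes. BASP1 then had a limma adjusted p of 0.0193. With a pseudocount of 0.1 instead of 1, 10 members were called (34.5%), against 24.1% of all tested genes. Among the 6401 eligible genes at 5 FPKM or more in all 4 knockout libraries, a background added after the data were seen, 36.5% were called. The libraries of KO2 and KO1 did not overlap for 24 of the 29, against 64.8% of all tested genes. The median absolute difference was 0.20 log2 in members, against 0.15 in all tested genes and 0.12 in the 6401. Only 7 members lay beyond 0.5 log2 and 0 beyond 1. The median difference of the members was -0.03 log2, against -0.01 for all tested genes.

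Called members that were lower in KO2 were led by IGFBP1, and 3 of them (DEPDC7, GNG11 and IGFBP1) were the most abundant members after BASP1. IGFBP1 averaged 23.1 ± 1.83 FPKM in KO2 and 43.1 ± 0.770 in KO1 (SD, n = 2 each), a difference of -0.87 ± 0.06 log2 (SE; limma with Benjamini-Hochberg adjustment, adjusted p = 0.00126). GNG11 averaged 25.1 ± 0.806 FPKM in KO2 and 41.7 ± 0.673 in KO1, -0.71 ± 0.04 log2 (limma adjusted p = 0.000764). UCN2 differed by -0.70 ± 0.08 log2, MARCOL by -0.69 ± 0.05, DEPDC7 by -0.66 ± 0.03 and SPART by -0.63 ± 0.06, with limma adjusted p of 0.00441, 0.00132, 0.00058 and 0.00262. JPH2 (-0.33 log2), SCARA5 (-0.20) and FAM20C (-0.20) were called lower by less. In each of these 9 genes both KO2 libraries lay below both KO1 libraries, which nearly follows from the call with 2 libraries per group.

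Higher in KO2 were 3 membrane proteins (BASP1, SMIM30 and SH3GL2), the enzyme DSEL, the receptor NPR1, the transcription factor TWIST2 and the secreted protein C4BPA. DSEL averaged 10.5 ± 0.694 FPKM in KO2 and 6.69 ± 0.0326 in KO1, 0.58 ± 0.06 log2 (limma adjusted p = 0.00339). NPR1 averaged 30.7 ± 0.638 FPKM in KO2 and 22.1 ± 0.154 in KO1, 0.46 ± 0.04 log2 (limma adjusted p = 0.0017). TWIST2 differed by 0.35 ± 0.06 log2, C4BPA by 0.33 ± 0.08, SH3GL2 by 0.23 ± 0.05 and SMIM30 by 0.16 ± 0.04, with limma adjusted p of 0.0107, 0.0335, 0.0364 and 0.0459. BASP1 was called at only 0.15 ± 0.02 log2 (limma adjusted p = 0.00914), or 1.11-fold. CPLANE1 (-0.11 ± 0.05 log2, limma adjusted p = 0.168) and ZNF331 (0.03 ± 0.04, adjusted p = 0.714) were not called.

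The number of called genes depended on single libraries, among members as among all genes. Members called were 8 without KO1 replicate 1 (27.6%, against 11.7% of all tested genes), 8 without KO1 replicate 2 (against 12.3%), 8 without KO2 replicate 2 (against 16.3%) and 12 without KO2 replicate 1 (41.4%, against 17.5%), where the lone library of its group is taken to vary like the other groups. DEPDC7, GNG11, IGFBP1, MARCOL, SPART, UCN2, DSEL and NPR1 were called under all 13 alternatives run, and the other 8 called members under 4 to 10 of them.

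**Figure D4:**
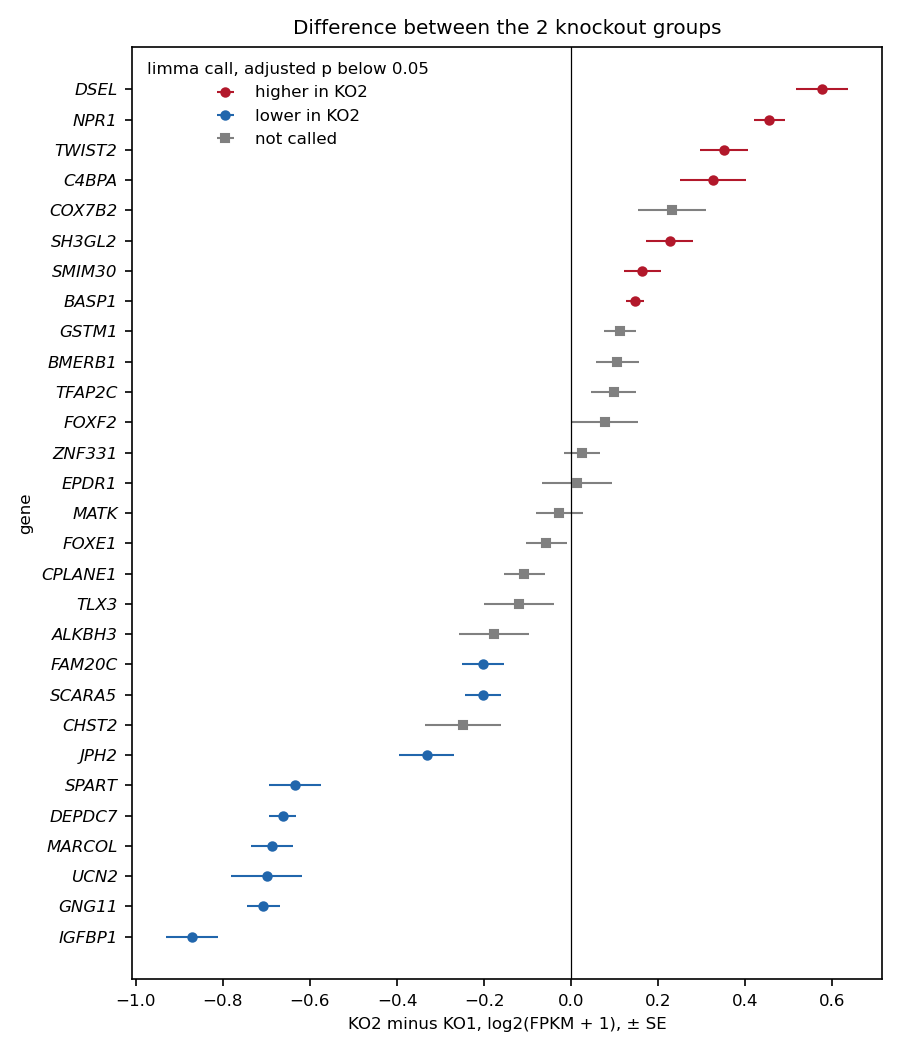
Difference of KO2 minus KO1 on the log2(FPKM + 1) scale (horizontal axis, bars ± SE of limma with 2 libraries per group) for the 29 genes, ordered by difference. Red circles are called higher in KO2 (7 genes, DSEL at the top with 0.58), blue circles lower (9 genes, IGFBP1 at the bottom with -0.87), and grey squares are not called (13 genes).

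Some of these differences were shared by the genes around a member. Within 1 Mb of NPR1, 23 of 32 tested coding genes were higher in KO2 and 1 was lower, with a median of 0.41 log2 beside 0.46 for NPR1 itself. Around SPART, 4 of 4 tested coding genes were lower in KO2, with a median of -0.69 log2, and the 195 tested coding genes of chromosome 13 had a median of -0.40. Around UCN2 the 40 tested coding genes had a median of 0.00 log2, with 7 higher and 5 lower in KO2. Around DEPDC7 the 10 had a median of -0.05 log2, with 4 lower and 0 higher. Around IGFBP1 the 4 had a median of -0.40 log2, with 1 higher and 2 lower. Around MARCOL the 8 had a median of -0.29 log2, with 0 higher and 3 lower. Around GNG11 the 10 had a median of -0.06 log2, with 1 higher and 2 lower. Over all 16046 tested genes, 11.2% were higher in KO2 and 15% lower. No tested coding gene lay within 1 Mb of DSEL. Across the 25 members with at least 3 such genes, the member's difference and the median around it had a Pearson r of 0.61 and a Spearman rho of 0.49, given as a description since all points share the same 4 libraries. The part of the surrounding regions in these differences was not tested.

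The members lay on 15 chromosomes. Chromosome 7 held 5 (17.2%, against 4.73% of eligible genes), chromosome 5 held 4 (13.8%, against 4.67%) and chromosome 1 held 3 (10.3%, against 10.7%). No pair was closer than the 8.2 Mb between EPDR1 and IGFBP1. Their 57 nearest coding neighbours, 1 on each side where annotated, were mixed in WT. Of these, 17 were at 0 reads in both WT libraries, 15 above 0 but under 1 FPKM and 25 at 1 FPKM or more (43.9%, against 55.2% of all 19061 coding genes). Among the 35 neighbours tested, 25 were higher in the knockout average (71.4%, against 40.0% of 11489 tested coding genes) and 5 were lower (14.3%, against 46.2%). Their median difference was 0.96 log2, against -0.06 for the tested coding genes. Within 250 kb of a member the median was 0.62 log2 over 103 tested genes. Only neighbours that reached 1 FPKM in 2 libraries were tested, and the rest enter neither these shares nor the medians. Neighbours under 1 FPKM in WT passed that filter through the knockout libraries alone. Examples are CNTLN, ZNF813, TFPI2, C4BPB, CDH19, RANBP17, SPINK6, SPINK13 and TOX2. They could hardly be called lower, and each named here was called higher. BMP7, under 1 FPKM in the knockout libraries, passed through WT alone and was called lower. The filter thus fixed part of these shares and medians in advance. These are also the same knockout and WT libraries that chose the members, so the values are a description.

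Several members lay between genes that were on in WT. Neighbours and relatives named in this and the following paragraphs on families were chosen after their values were seen. CPLANE1 lies between NIPBL, the cohesin loader gene, and NUP155, a nuclear pore gene. NIPBL averaged 22.8 ± 2.17 FPKM in knockout libraries (SD, n = 4) and 5.02 ± 0.0903 in WT (SD, n = 2). NUP155 averaged 33.2 ± 0.673 FPKM in knockout libraries and 17.0 ± 0.872 in WT. CPLANE1 was thus at 0 reads in WT between a pair of active genes. DEPDC7, FOXE1, FOXF2, NPR1 and TWIST2 also had neighbours at 1 FPKM or more in WT on both sides. Others lay in stretches without any WT read. BASP1 was at 1 end of a run of 12 consecutive coding genes at 0 in WT, of which it alone reached 1 FPKM in the knockouts. Most of this run is the series TAF11L2 to TAF11L10, and how reads with several matches were treated is not stated. On its other side BASP1 adjoins MYO10, at 14.3 ± 0.0549 FPKM in WT. SMIM30 and SPART each lay in a run of 6 such genes and COX7B2 in a run of 5 among GABA receptor genes, and each was the only gene of its run at 1 FPKM in the knockouts. The run of SPART counts SOHLH2, CCDC169 and their joint entry CCDC169-SOHLH2 separately. In 4 short runs a neighbour at 0 in WT came on as well, and these neighbours were CNTLN beside SH3GL2, ZNF813 beside ZNF331, MPV17L in the run of BMERB1 and CDH19 beside DSEL. CNTLN, which encodes a centriolar protein, averaged 1.71 ± 0.0632 FPKM in knockout libraries, and ZNF813 1.49 ± 0.184, against 0 in WT.

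**Figure D5:**
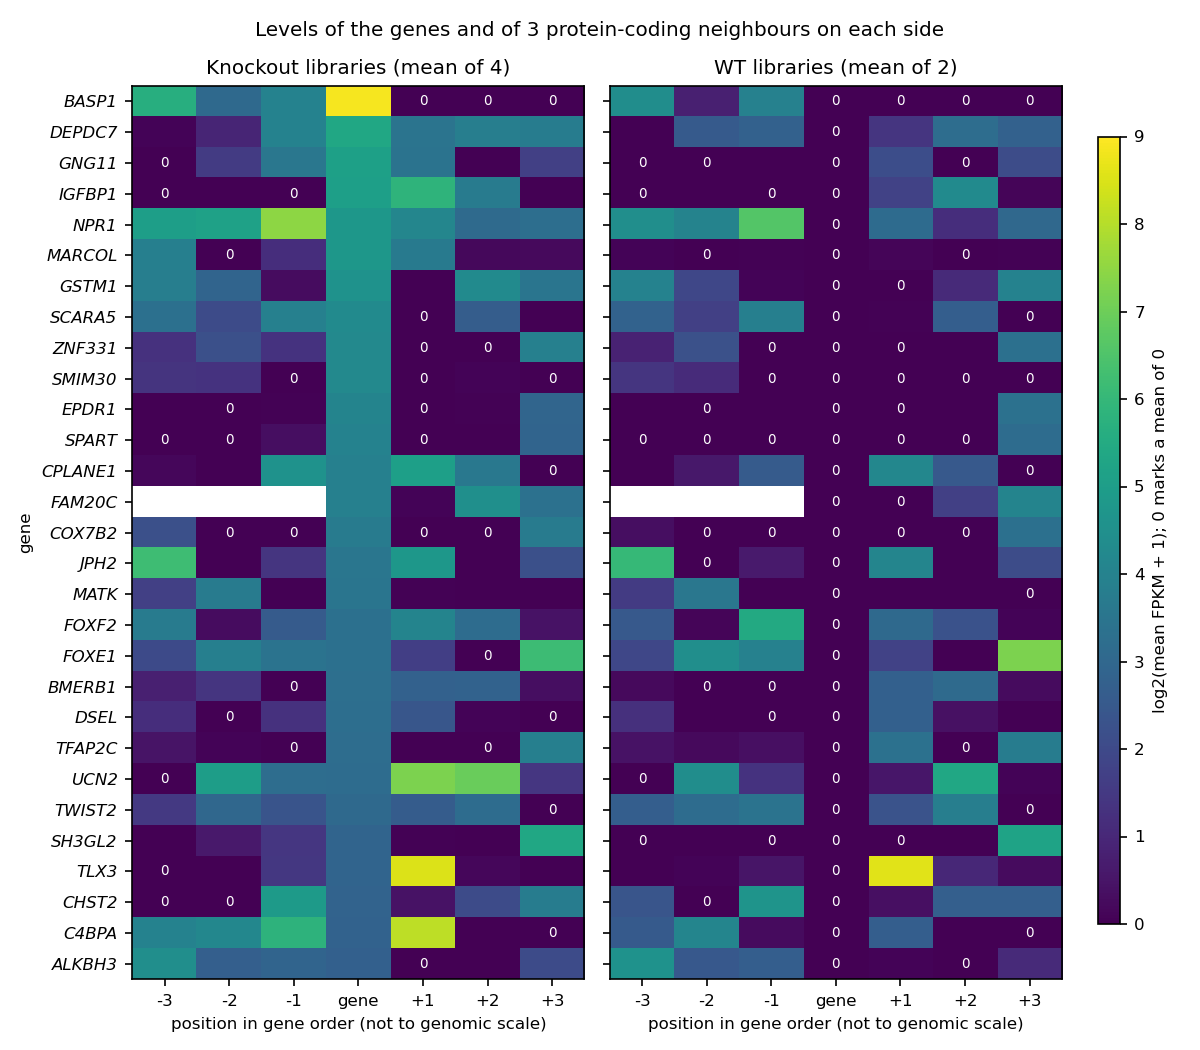
Mean level on the log2(FPKM + 1) scale (colour) of each of the 29 genes (middle column of each panel) and of up to 3 coding genes on each side in gene order, in the 4 knockout libraries (left) and the 2 WT libraries (right). White cells are positions without a gene on that side, a 0 marks a mean of 0, and the middle column is 0 for every gene in WT.

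C4BPA and IGFBP1 were on together with an adjacent gene of the same family, and some others together with an unrelated neighbour. C4BPB, the beta chain of the same complement inhibitor, starts 15420 bases from C4BPA and averaged 55.9 ± 5.74 FPKM in knockout libraries, against 0.195 ± 0.132 in WT, or 287-fold higher (5.57 ± 0.07 log2, limma adjusted p = 2.88e-07). CD55, which shields cells from complement, is on the other side of C4BPA and averaged 274 ± 44.5 FPKM, against 5.38 ± 0.141 in WT. The chain encoded by C4BPB was thus far above the 6.14 FPKM of C4BPA in the same libraries. IGFBP3 starts 23888 bases from IGFBP1 and averaged 56.7 ± 17.4 FPKM, against 2.41 ± 0.383 in WT. GNG11 adjoins TFPI2, an inhibitor of serine proteases, with 11.0 ± 3.49 FPKM, against 1 read in WT, and MARCOL adjoins SPINK13, a Kazal-type protease inhibitor, with 12.1 ± 2.66 FPKM, against 0.0858 ± 0.00979 in WT. Beside GSTM1 the adjacent GSTM2 and GSTM5 were low, at 0.224 ± 0.0636 and 0.00939 ± 0.00677 FPKM in knockout libraries, against 0.0744 ± 0.00461 and 0 in WT. GSTM3, farther along the cluster, averaged 18.8 ± 0.281 FPKM, against 1.11 ± 0.342 in WT.

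For several members a paralog moved the other way. JPH1, the junctophilin of skeletal muscle, fell to 0.0118 ± 0.0165 FPKM in knockout libraries, against 17.1 ± 1.21 in WT, while JPH2 was on and JPH3 rose to 5.31 ± 0.405 FPKM, against 0.121 ± 0.0495 in WT. TWIST1 had 0 reads in all knockout libraries, against 2.70 ± 0.4995 FPKM in WT, whereas TWIST2 showed the reverse. CSK, the relative of MATK, fell to 9.89 ± 0.521 FPKM, against 31.4 ± 0.727 in WT (-1.57 ± 0.05 log2, limma adjusted p = 5.35e-06). Levels of CSK and MATK per exon length were thus similar in the knockouts, at 9.89 and 10.4 FPKM. COX7B, the widely used counterpart of COX7B2, was at 40.6 ± 5.96 FPKM in knockout libraries and 37.6 ± 1.79 in WT and was not called (limma adjusted p = 0.0683).

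In other families a relative rose where the member was on. FOXF1 rose to 8.76 ± 0.362 FPKM in knockout libraries, against 0.156 ± 0.00228 in WT, a level close to that of FOXF2. TFAP2A rose to 12.2 ± 0.101 FPKM, against 1.83 ± 0.106 in WT, while TFAP2E fell to 0.270 ± 0.0944, against 1.08 ± 0.0362, and TFAP2B and TFAP2D had 0 reads in all 6 libraries. Among binding proteins of insulin-like growth factors, IGFBP7 rose to 94.9 ± 7.34 FPKM, against 0.0861 ± 0.0819 in WT, but IGFBP6 fell to 34.6 ± 17.5 FPKM, against 312 ± 6.80, and IGFBP2 to 0.00513 ± 0.00599, against 10.1 ± 0.210. The ligand genes of NPR1 and the receptor gene of UCN2 were silent or low in both states. For NPR1, the ligand genes NPPA, NPPB and NPPC had 9, 0 and 0 reads over the 4 knockout libraries and 2, 1 and 1 over the WT libraries. For UCN2, the receptor gene CRHR2 was at 0.228 ± 0.0472 FPKM in knockout libraries and 0.199 ± 0.0671 in WT. The clearance receptor NPR3 rose to 4.57 ± 0.553 FPKM, against 0.0349 ± 0.0104 in WT.

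Gene lists for the pathways around the members were examined in the knockout average against WT, where 80.6% of all 16046 tested genes were called, 40.5% higher and 40.1% lower. Members were left out of these counts. A gene was tested only if it reached 1 FPKM in 2 libraries or more, so genes low throughout were not tested. Genes under 1 FPKM in WT entered through the knockout libraries alone and could hardly be called lower. The reverse held for genes under 1 FPKM in the knockout libraries. Of 25 tested silencing regulators, 8 rose, 13 fell and 4 were not called, with a median of -0.18 log2, against 0.02 for all tested genes. DNMT1, the maintenance DNA methyltransferase, fell to 18.7 ± 0.319 FPKM in knockout libraries, against 38.6 ± 0.513 in WT (-1.01 ± 0.02 log2, limma adjusted p = 1.59e-06). The de novo methyltransferase DNMT3A fell to 0.950 ± 0.153 FPKM, against 6.62 ± 0.214 in WT. TRIM28, the corepressor recruited by KRAB zinc finger proteins, fell to 63.8 ± 5.95 FPKM, against 138 ± 3.95, and MORC2, a partner of the HUSH silencing complex, to 6.35 ± 0.960, against 16.1 ± 0.115.

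Most tested imprinted genes other than ZNF331 rose. Of 14 tested, 12 rose and 2 fell (median 1.21 log2), and several listed genes were too low to be tested. PEG10, SGCE, SNRPN, KCNQ1, CDKN1C and L3MBTL1 were under 1 FPKM in WT. They passed the filter through the knockout libraries alone, so their rise in these counts was nearly fixed. CDKN1C, a cyclin-dependent kinase inhibitor, rose to 70.5 ± 6.24 FPKM in knockout libraries, against 0.807 ± 0.164 in WT. KCNQ1, a potassium channel gene, rose to 15.7 ± 0.787 FPKM, against 0.282 ± 0.0163, PLAGL1, a zinc finger factor, to 15.8 ± 0.665, against 2.02 ± 0.0322, and the retroviral-like gene PEG10 to 9.72 ± 5.74, against 1 read. Of 60 listed developmental transcription factors, 28 other than TWIST2 and FOXF2 were tested. Of these 28, 19 were higher, 8 lower and 1 not called, with a median of 1.02 log2. SIX2 averaged 12.8 ± 0.883 FPKM in knockout libraries against 1 read in WT, FOXC2 15.7 ± 2.91 against 0.0629 ± 0.0438, and IRX3 21.5 ± 0.680 against 0.469 ± 0.0778 in WT. All of these named factors were under 1 FPKM in WT, so the knockout libraries alone brought them past the filter. The counts and median of this list were thus fixed in part by the filter, and how many of the 28 entered that way is not given here.

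The lists closest to CPLANE1, BASP1 and SCARA5 held genes that rose and genes that fell. Of 18 tested genes of the ciliary effector complex and transition zone, 9 rose, 8 fell and 1 was not called, with a median of 0.11 log2. TMEM107 rose to 11.7 ± 0.612 FPKM in knockout libraries, against 1.91 ± 0.319 in WT, CEP290 to 4.30 ± 0.354, against 1.71 ± 0.146, and TCTN1 to 5.72 ± 0.733, against 2.49 ± 0.247, while TMEM237 fell to 2.81 ± 0.0693, against 5.70 ± 0.464. Of 6 tested relatives and partners of BASP1, 5 fell and 1 rose (median -0.41 log2). MARCKS and MARCKSL1, membrane proteins of like behaviour, fell to 22.5 ± 4.95 and 44.8 ± 8.11 FPKM in knockout libraries, against 34.7 ± 1.21 and 103 ± 2.54 in WT. CALM3, a calmodulin gene, fell to 23.3 ± 1.76 FPKM, against 87.9 ± 0.132, and CALM2 rose to 69.6 ± 2.50, against 51.0 ± 1.23. The nuclear partner gene WT1 had 0 reads in all 6 libraries.

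Of 5 tested scavenger receptors other than SCARA5, 2 rose, 2 fell and 1 was not called, with a median of -0.06 log2. SCARA3 rose to 14.1 ± 5.13 FPKM in knockout libraries, against 5.15 ± 0.605 in WT, and OLR1 to 8.01 ± 7.77, against 0.111 ± 0.0568. SCARB2 fell to 7.63 ± 0.549 FPKM, against 14.2 ± 0.113. Of 11 tested genes of iron handling, 6 rose, 3 fell and 2 were not called, with a median of 0.17 log2. The ferritin heavy chain gene FTH1 rose to 1313 ± 43.8 FPKM in knockout libraries, against 519 ± 7.62 in WT, and the iron importer gene SLC11A2 to 15.2 ± 0.591, against 5.31 ± 0.0817. The transferrin receptor gene TFRC fell to 38.5 ± 3.35 FPKM, against 94.3 ± 1.35, and its relative TFR2 rose to 5.26 ± 0.863, against 0.0696 ± 0.00794. Of 4 tested germline and testis genes, a class that COX7B2 resembles, 2 rose and 2 fell. PRAME rose to 11.1 ± 1.248 FPKM, against 0.0501 ± 0.0505 in WT, and HORMAD1 to 11.8 ± 2.99, against 3.26 ± 0.231, while ACTL8 fell to 0.226 ± 0.0960, against 156 ± 1.81, and DDX43 to 0.0903 ± 0.0222, against 2.97 ± 0.0999.

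Markers of other cell types were mostly low in both states. Summed levels of the 12 leukocyte markers were 2.29 to 4.24 FPKM in knockout libraries, against 2.48 to 2.64 in WT, and the common leukocyte gene PTPRC had 1 read over the 4 knockout libraries, against 6 over the WT libraries. The 12 neuronal markers summed to 1.15 to 1.37 FPKM, against 3.39 to 3.51, and the 8 neuroendocrine ones to 0.713 to 0.911, against 0.296 to 0.363. The 10 muscle markers summed to 3.07 to 3.58 FPKM, against 3.03 to 3.13, and the 10 hepatocyte markers to 3.01 to 4.58, against 21.4 to 22.8. The 10 endothelial markers summed to 8.89 to 17.7 FPKM in knockout libraries, against 1.79 to 2.06 in WT, carried mostly by ESAM. The 12 renal and mesothelial markers summed to 88.4 to 122 FPKM, against 160 to 174. The 12 fibroblast markers summed to 661 to 883 FPKM in knockout libraries, against 107 to 110 in WT. All 5 tested rose, among them FBLN1, a matrix glycoprotein, with 85.6 ± 8.44 FPKM against 0.0441 ± 0.00954, and S100A4 with 654 ± 102 against 108 ± 2.37, while PDGFRA had 0 reads in all 6 libraries and POSTN 1 read over the knockout libraries. FBLN1, under 1 FPKM in WT, passed the filter of the test through the knockout libraries alone. Most of both sums was S100A4. The part of these markers in the members' levels was not tested.

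Beyond coding genes, 21 noncoding genes and pseudogenes met the same limits, and 10 of them were long intergenic RNAs. None of the 21 lay within 10 kb of a member. PURPL, a long noncoding RNA known as a p53-regulated transcript, was the highest of them at 47.1 ± 9.15 FPKM in the knockout libraries (SD, n = 4). LINC02582 averaged 39.4 ± 1.93 FPKM and LINC00958 12.1 ± 2.04, each against 0 reads in WT. FENDRR, which is transcribed next to FOXF1, averaged 5.67 ± 0.524 FPKM.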

How the data were processed

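The authors deposited 6 tables of FPKM, 1 per library, with 58735 Ensembl gene IDs. The submitters' processing notes name HISAT2 2.0.5, featureCounts 1.5.0-p3 and hg38, but no source used here states the strand setting or the treatment of reads with several matches. Biotypes, exon lengths and coordinates (GRCh38) came from GENCODE release 29, in which all IDs were present, 58207 of them with a current symbol. Among the low values checked, 100% were whole multiples of 1 step per library once multiplied by exon length (tolerance 0.1 of a step), so reads were recovered, with 1 read per kb worth 0.0429 to 0.0544 FPKM. The FPKM denominator was 0.936 to 1.05 times the recovered total, for reasons no source used here gives.

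Members were taken by the rule given in the report. The fit took the 16046 genes that reached 1 FPKM in 2 libraries or more, all 29 members among them, as log2(FPKM + 1) in limma 3.58.1 (R 4.3.3; 1 mean per group, all 6 libraries, mean-variance trend, no covariate), with Benjamini-Hochberg adjustment over all of them and calls at an adjusted p below 0.05. Log2 differences on this scale understate changes of low genes. Contrasts were KO2 minus KO1 and the mean of both knockout groups minus WT. The limma step was tested on simulated data for KO2 minus KO1, with 50 changed genes at each fold. It recovered 44% of changes of 1.25-fold, 90% of 1.5-fold and 98% of 2-fold. Over the 15972 genes run, 23 calls were false. Floors of 3 reads per library and binomial intervals reflect counting error alone, because reads were not tied to single molecules by identifiers. Promoter windows and sequences are from RefSeq (GRCh38.p14), with 25 of 29 members matched by symbol. Other steps used Python 3.11.15, pandas 2.3.3 and numpy 2.4.6.

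The text names the 4 markers of the group (BASP1, CPLANE1, ZNF331 and SCARA5), the 15 members with the highest mean knockout FPKM, the 6 highest and 6 lowest called KO2 minus KO1 differences, the 3 members and 3 genes nearest to the 5 FPKM limit on either side, up to 4 genes per list with the smallest adjusted p, and the genes that check the labels. The other members, neighbours, relatives and noncoding genes were named after their values were seen. The members and the gene lists were chosen with earlier results of these data known. Alternatives were a pseudocount of 0.1, no filter, quantile normalization, scaling by library size alone, voom on recovered reads with TMM factors, the knockout libraries alone, a replicate block and leaving out each library. Some genes that the rule or the lists select are not reported here.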

Additional observations from a re-analysis of the deposited data

Results flagged for a closer look

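Of the members, 7 differed between the knockout groups by more than 0.5 on the log2(FPKM + 1) scale in KO2 minus KO1, with a limma adjusted p below 0.05 under Benjamini-Hochberg adjustment, a test of the difference itself. IGFBP1 had -0.87, GNG11 -0.71, UCN2 -0.70, MARCOL -0.69, DEPDC7 -0.66 and SPART -0.63, so that these 6 were lower in KO2 although none was detected in WT. DSEL was higher in KO2 at 0.58. The share of all tested genes beyond both limits is not given here. At any size of difference, 55.2% of the members and 26.2% of all tested genes were called. In each of the 7 genes both KO2 libraries lay on the same side of both KO1 libraries. That nearly follows from their choice by size and adjusted p, and 64.8% of all tested genes did not overlap either.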

How the results depend on the processing

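The number of members followed the limits. It was 96 at 1 FPKM in all 4 knockout libraries, 54 at 2 FPKM, 29 at the 5 FPKM used and 15 at 10 FPKM. It was 64 with up to 3 reads allowed in each WT library and 83 with WT below 0.1 FPKM.

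Of 16 members called in KO2 minus KO1 (7 higher, 9 lower), 10 were called with a pseudocount of 0.1 (4 higher), beside 24.1% of all tested genes. Without a filter on low values 12 were called, 4 of them higher (8.81% of all genes), and with the replicate block 12, 4 higher and 8 lower (21.6%). Leaving out single libraries gave 8 to 15 called, 2 to 6 of them higher and 6 to 9 lower, beside 11.7% to 26.6% of all tested genes. The causes were not tested, though the leave-one-out fits hold fewer libraries. Of 377 single-member values under 13 alternatives, 321 kept direction and call, 46 lost the call, 4 gained it (CHST2 in 1 alternative and GSTM1 in 3) and 6 changed sign. Sign changes concerned uncalled members near 0 log2: EPDR1 (-0.076 to 0.1024 when single libraries were left out), FOXF2 (-0.0074 to 0.1623), MATK (-0.0794 to 0.0256, and 0.0177 under quantile normalization) and ZNF331 (-0.0058 to 0.057).

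The neighbours' median fell to 0.62 log2 when all coding genes within 250 kb were taken, against 0.96 for the nearest. List genes called lower in the knockout average were 65, and 42 to 65 when single libraries were left out (42 without WT replicate 1). The share of members with a CpG-rich promoter was 56% over 250 bases as over 300. Same-numbered libraries of different groups did not deviate together (correlations 0.02, 0.00 and -0.04 over 16046 genes), so the numbers pair nothing. A count of 0 reads at these depths does not exclude transcripts below about 3 reads per library.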
